A study of Mus musculus with 20 samples.

Results

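The tumour necrosis factor (TNF) family was followed across resident macrophages and infiltrating cells sorted from mouse muscle and across whole muscle. The 39 genes were chosen by symbol: every gene whose name is Tnf or begins with Tnfsf or Tnfrsf, plus Cd40, Cd40lg, Fas, Fasl, Lta and Ltb. All 39 were listed in each of 4 expression tables, which hold 24338 genes for resident macrophages, 16836 for infiltrating cells, 24340 for dystrophic muscle and 24313 for injured muscle. A member was reported in a table where it reached 1 FPKM (fragment counts scaled by transcript length and by the size of the library) in at least 1 library. By that rule 27 members were reported in resident macrophages, 24 in infiltrating cells, 11 in dystrophic muscle and 26 in injured muscle. Of the 39, 9 were reported in all 4 tables and 32 in at least 1. The other 7 (Cd40lg, Lta, Tnfrsf8, Tnfsf4, Tnfsf11, Tnfsf15 and Tnfsf18) stayed below 1 FPKM in every library, the highest being Tnfsf18 at 0.94 FPKM in a resident library. Just above the line were Tnfrsf23 in infiltrating cells at 1.03 FPKM and Tnfrsf9 in injured muscle at 1.13 FPKM, and just below it Tnfrsf25 in infiltrating cells at 0.85 FPKM and Tnfsf10 in injured muscle at 0.866 FPKM.

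TNF ligands are trimeric membrane proteins, many of them shed by proteases, and each binds 1 or more receptors of the family. Receptors with a death domain, such as Tnfrsf1a, the widely expressed TNF receptor, and Fas, recruit adaptors that lead to NF-kB or to caspases. Receptors without one, such as Tnfrsf1b, the TNF receptor of leukocytes, and Tnfrsf12a, the receptor of the ligand TWEAK encoded by Tnfsf12, bind TRAF adaptors, and a few soluble or decoy receptors bind ligand without signalling. In muscle, macrophages are a known source of TNF after damage, and the TWEAK receptor is known for its rise in damaged or denervated muscle.

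The 20 RNA-seq libraries came from 4 experiments. Resident macrophages were taken from uninjured muscle of male mice with the Cx3cr1-GFP reporter, gated as CD45+ CD11B+ LY6G- F4/80+ MERTK+, and split by MHCII and by GFP into 4 gates with 1 library each. Infiltrating cells were GFP+ CD45+ CD11B+ cells negative for LY6G and SIGLECF, sorted from the damaged tibialis anterior of a wild-type female joined in parabiosis to a GFP partner, so that GFP marked cells that had come through the blood, and day 4 had 2 libraries, days 2 and 6 only 1 each. Dystrophic whole muscle came from 8-month-old female mdx mice fed for 6 months either control AIN-76A food or the same food with 200 mg/kg of PLX73086, an inhibitor of the macrophage growth factor receptor CSF1R, with 3 libraries per diet. A PDGFRa-EGFP reporter was carried by 1 PLX mouse and 2 control mice of that experiment. Injured whole muscle came from male C57BL/6J mice that were damaged 3 days after the end of a 3-week course of control or PLX food; each diet had 1 library at 12 h and 2 at 18 h. The labels do not say whether animals were pooled or housed apart, so a p-value measures only the spread between these samples. Each table was normalised on its own, and values of different tables are set side by side without a test.

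The libraries held between 9349 and 11943 genes at 1 FPKM or more. Relative depth, read from ratios of low values, ranged from 0.71 to 1.29 times that of the first library of a table. All 7 macrophage markers (Adgre1, Csf1r, Mertk, Cd68, Fcgr1, Itgam and Lyz2) passed 1 FPKM in every sorted library, with summed levels of 7531 to 8238 FPKM in resident and 6059 to 7809 FPKM in infiltrating cells. In dystrophic muscle the same sum lay between 51.8 and 111 FPKM in 5 libraries and at 349 FPKM in control replicate 2, which stood apart. In bulk muscle, fewer cells of a type and less RNA per cell cannot be told apart.

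The 250 bases before the RefSeq start of 3 members are shown because these genes carry the main patterns: Tnf was the most abundant member of the sorted cells, Tnfrsf1b was called higher and Tnfrsf12a called lower with the PLX diet in injured muscle. The sequences are RefSeq's on GRCm38.p6, the patch of the mm10 build that the submitters' processing notes name, written 5′ to 3′ on the gene's strand with motif matches in capitals.
Tnf (chr17:35202008-35202257, minus strand): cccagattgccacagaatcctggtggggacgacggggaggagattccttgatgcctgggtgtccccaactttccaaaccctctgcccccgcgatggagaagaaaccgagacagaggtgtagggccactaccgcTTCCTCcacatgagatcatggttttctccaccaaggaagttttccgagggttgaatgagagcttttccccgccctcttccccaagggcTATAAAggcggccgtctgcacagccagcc
Tnfrsf1b (chr4:145246871-145247120, minus strand): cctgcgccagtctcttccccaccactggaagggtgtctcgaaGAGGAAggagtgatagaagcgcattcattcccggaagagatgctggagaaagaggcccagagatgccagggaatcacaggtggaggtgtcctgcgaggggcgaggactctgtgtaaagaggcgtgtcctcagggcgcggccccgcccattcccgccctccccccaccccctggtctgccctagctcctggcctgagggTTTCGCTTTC
Tnfrsf12a (chr17:23677450-23677699, minus strand): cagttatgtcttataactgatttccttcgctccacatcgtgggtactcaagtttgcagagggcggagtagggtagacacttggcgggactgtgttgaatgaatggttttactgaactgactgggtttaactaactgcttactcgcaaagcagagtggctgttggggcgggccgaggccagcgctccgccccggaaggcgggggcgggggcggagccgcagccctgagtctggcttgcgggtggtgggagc
Matches were searched on both strands for the NF-kB motif by name, for AP-1 (TGANTCA), for the core bound by the macrophage factor PU.1 (GAGGAA), for the TATA box (TATAAA) and for the interferon-stimulated response element (GAAANNGAAA). The Tnf window held the PU.1 core on the other strand, its first base 117 bases before the start, and a TATA box beginning 29 bases before it. The Tnfrsf1b window held the PU.1 core 208 bases before the start and, on the other strand, the interferon element over the last 10 bases. The Tnfrsf12a window held none of these letters, and the bases nearest its start lie within the gene as GENCODE annotates it. Over the 32851 promoter windows of this length, 7.25% held the NF-kB motif, 6.75% AP-1, 23.3% the PU.1 core, 12.4% the TATA box and 2.98% the interferon element. Windows were at hand for 30 members, of which 4, 6, 11, 6 and 4 held these motifs, in the same order. No 2 of these motifs overlapped in the printed windows.

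**Figure D1:**
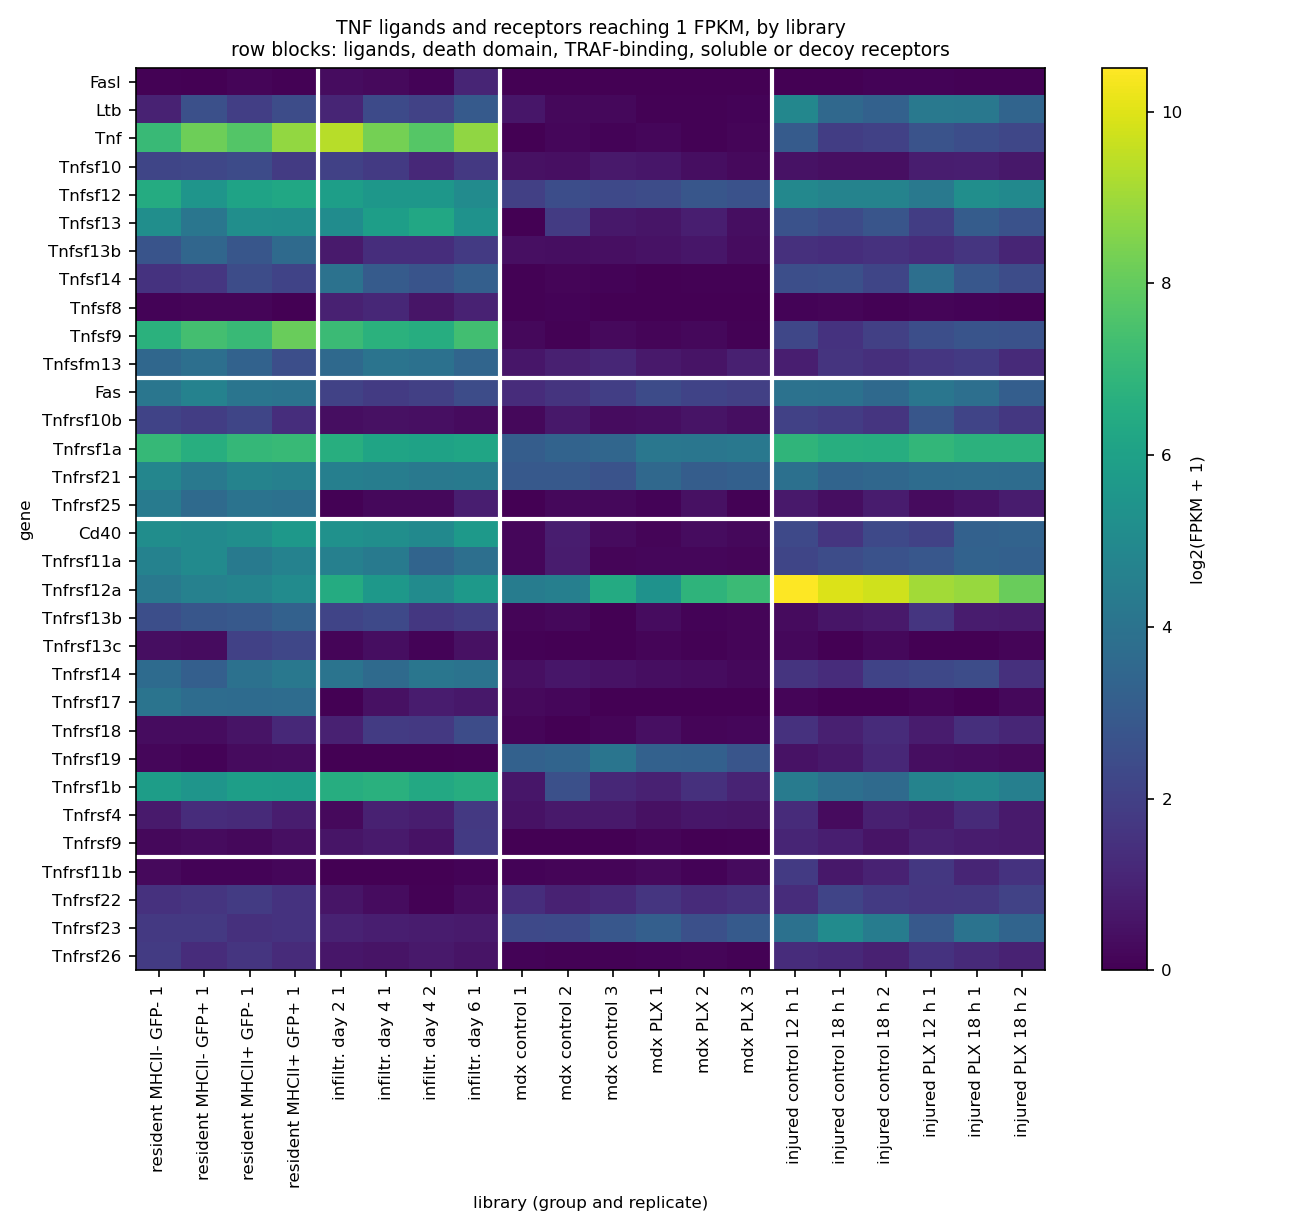
Level of each member that reached 1 FPKM, as log2(FPKM + 1), in each of the 20 libraries; columns are libraries by group and replicate, white lines separate the 4 tables and the 4 classes of member, and tables were normalised separately. Tnf and Tnfsf9 are high in the sorted cells, and Tnfrsf12a is high in injured muscle.

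Among the ligands, Tnf had the highest mean level of any member in both sorted tables. In resident macrophages it stood at 139 FPKM in the MHCII- GFP- gate, 208 in MHCII+ GFP-, 291 in MHCII- GFP+ and 449 in MHCII+ GFP+. The 2 GFP+ gates were the 2 highest, and within each GFP class the MHCII+ gate was above the MHCII- gate. In infiltrating cells Tnf was 671 FPKM at day 2, 317 and 212 at day 4, and 436 at day 6, so both day 4 libraries lay below the other two. Whole muscle held far less: 2.77 to 7.02 FPKM across the 6 injured libraries and, in dystrophic muscle, 0.01, 0.134 and 0.0692 FPKM in controls and 0.146, 0.0321 and 0.116 FPKM with PLX, all close to the lowest value the table lists.

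Tnfsf9, the ligand of a costimulatory receptor of T cells, was second in both sorted tables. Its levels in resident gates were 102 FPKM in MHCII- GFP-, 139 in MHCII+ GFP-, 165 in MHCII- GFP+ and 272 in MHCII+ GFP+, the same order as for Tnf. In infiltrating cells it was 144 FPKM at day 2, 104 and 93.6 at day 4 and 161 at day 6. The sorted cells had been released by enzymes at 37 °C before sorting, whereas whole muscle was not dissociated. A list of 8 immediate early genes (Fos, Fosb, Jun, Egr1, Atf3, Dusp1, Ier2 and Zfp36), added after the values were seen, summed to 9625 to 14610 FPKM in resident gates, 5561 to 6617 in infiltrating cells, 85.0 to 161 in dystrophic and 431 to 1528 in injured muscle. Its part in the levels of Tnf and Tnfsf9 was not tested.

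Tnfsf12, which encodes TWEAK, was above 3 FPKM in every library. Resident gates had 87.0 FPKM in MHCII- GFP-, 67.5 in MHCII+ GFP-, 43.5 in MHCII- GFP+ and 75.5 in MHCII+ GFP+. Infiltrating cells had 57.7 FPKM at day 2, 46.0 and 46.9 at day 4 and 32.3 at day 6, the lowest of the 4. Dystrophic muscle held 3.01 to 5.97 FPKM and injured muscle 18.0 to 35.9 FPKM. Tnfsf12 shares its locus on chromosome 11 with Tnfsf13, which encodes the B cell factor APRIL, and with the read-through gene Tnfsfm13; all 3 lie on the minus strand and carry a single deposited span, bases 69682576 to 69696098 on mm10, and fragments from shared exons may have been divided among them uncertainly. Tnfsf13 itself ranged from 16.6 to 36.0 FPKM in resident and 33.1 to 78.9 FPKM in infiltrating cells.

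The other ligands were lower. Tnfsf13b, which encodes the B cell survival factor BAFF, ranged from 5.60 to 11.5 FPKM in resident and 0.708 to 2.45 FPKM in infiltrating cells. Tnfsf14, which encodes LIGHT, ranged from 1.94 to 4.39 FPKM in resident and 5.55 to 14.6 FPKM in infiltrating cells. Ltb, which encodes the membrane partner of lymphotoxin, reached 8.54 to 28.5 FPKM in injured muscle, above its 1.03 to 6.76 FPKM across the sorted libraries. Tnfsf10, which encodes TRAIL, did not exceed 4.26 FPKM in sorted cells, and Fasl and Tnfsf8 reached 1 FPKM in infiltrating cells alone, at no more than 1.13 and 1.28 FPKM.

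Among the death domain receptors, Tnfrsf1a led in all 4 tables. It stood at 132 FPKM in MHCII- GFP-, 128 in MHCII+ GFP-, 94.6 in MHCII- GFP+ and 136 in MHCII+ GFP+ resident macrophages. Infiltrating cells had 95.3 FPKM at day 2, 69.4 and 65.7 at day 4 and 72.1 at day 6. Injured muscle, at 92.5 to 122 FPKM, was within the range of the sorted cells, and dystrophic muscle was lower, at 7.45 to 17.4 FPKM. Fas was 14.9 to 24.0 FPKM in resident and 2.51 to 4.49 FPKM in infiltrating cells. Tnfrsf25, the death domain receptor of the ligand encoded by Tnfsf15, was 11.5 to 19.4 FPKM in resident macrophages and stayed at or below 0.85 FPKM in infiltrating cells. Tnfrsf21 was similar in the sorted tables, at 18.0 to 27.6 FPKM and 17.8 to 22.4 FPKM.

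Among the TRAF-binding receptors, Tnfrsf1b was 56.9 FPKM in MHCII- GFP-, 58 in MHCII+ GFP-, 43.9 in MHCII- GFP+ and 57.3 in MHCII+ GFP+ resident macrophages, and 93.0, 101 and 79.1, and 92.8 FPKM at days 2, 4 and 6 in infiltrating cells. Tnfrsf12a was 17.9, 25.5, 23.3 and 33 FPKM in the resident gates, taken in the same order. In infiltrating cells Tnfrsf12a was 87.0 FPKM at day 2, 47.8 and 32.2 at day 4 and 49.7 at day 6. In whole muscle it was the most abundant member, at 20.1 to 141 FPKM in dystrophic and 277 to 1456 FPKM in injured muscle, above every sorted library in the latter. Its deposited locus on chromosome 17, bases 23660522 to 23677449, is wider than the annotated gene at 23675445 to 23677468.

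Tnfrsf17, a receptor for APRIL and BAFF known from plasma cells, was 11.6 to 15.6 FPKM in resident gates and at most 0.746 FPKM in infiltrating cells. Cd40, a receptor for a T cell ligand on antigen-presenting cells, was 31.6 to 48.0 FPKM in resident and 30.3 to 49.0 FPKM in infiltrating cells, ranges that overlapped almost wholly. Tnfrsf19, a receptor known from embryonic tissue and hair follicles, was at most 0.276 FPKM in sorted cells and 0.2 to 1.24 FPKM in injured muscle. In dystrophic muscle its mean came after those of Tnfrsf12a and Tnfrsf1a, with 8.66, 9.35 and 15.9 FPKM in controls and 8.49, 8.43 and 5.87 FPKM with PLX. In the class of soluble or decoy receptors, Tnfrsf23, a mouse decoy receptor for TRAIL, was 1.76 to 2.35 FPKM in resident and 0.710 to 1.03 FPKM in infiltrating cells, 3.96 to 8.13 FPKM in dystrophic and 6.62 to 32.6 FPKM in injured muscle. Tnfrsf22, Tnfrsf23 and Tnfrsf26 are closely related copies next to each other on chromosome 7 and share an antisense gene, so their values are uncertain. Tnfrsf11b, which encodes the soluble receptor osteoprotegerin, passed 1 FPKM in injured muscle alone, with a highest value of 2.44 FPKM.

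**Figure D2:**
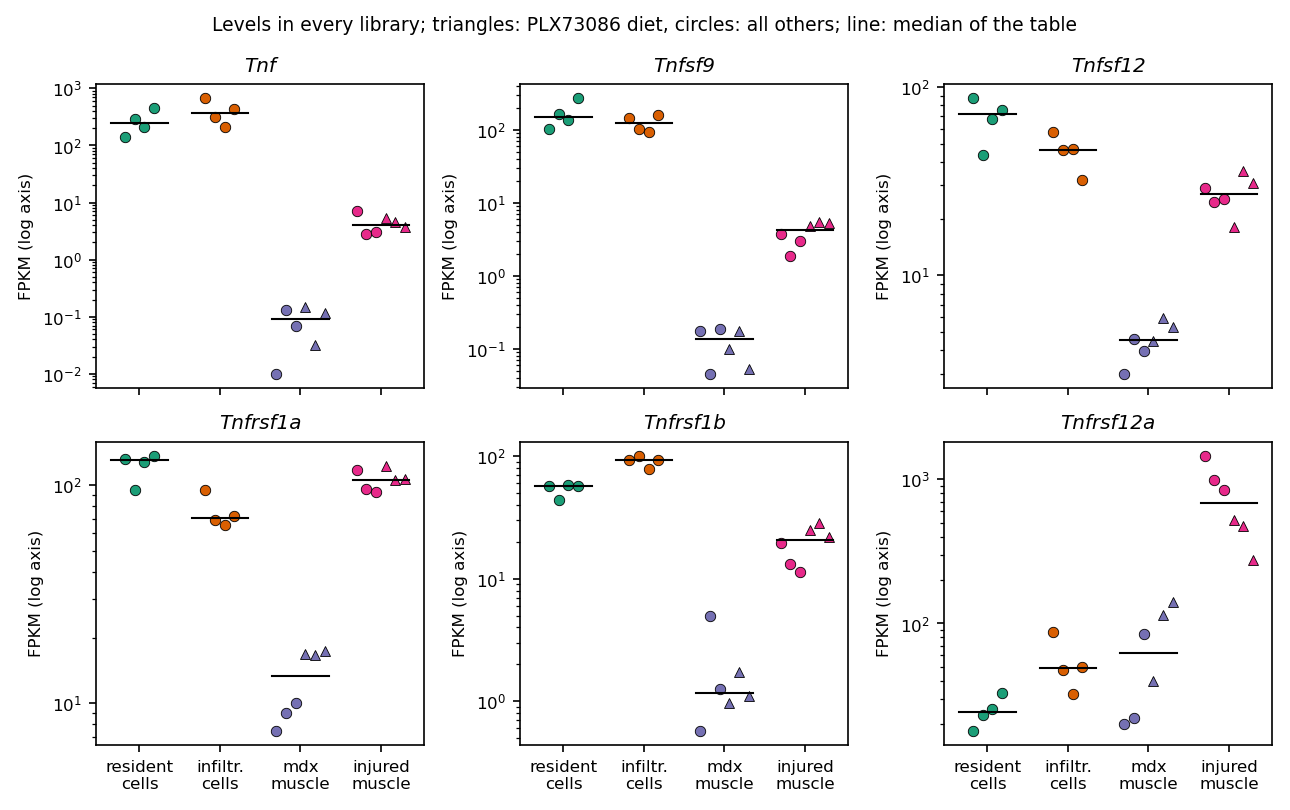
FPKM on a log axis of 6 members in every library of the 4 tables, with triangles for the PLX73086 diet, circles for all others and a line at the median of the table. Tnf and Tnfsf9 are at or above 93.6 FPKM in all sorted libraries and at or below 7.02 FPKM in all muscle libraries, whereas Tnfrsf12a is highest in injured muscle.

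The resident gates were compared to ask how MHCII and the Cx3cr1 reporter divide these cells. With 1 library per gate no test was possible, and a member was marked where FPKM + 1 differed by 2-fold or more. MHCII+ over MHCII- cells within GFP- gave 1 of 27 members higher and none lower, against 1.2% and 0.888% of the 12617 genes that reached 1 FPKM. Within GFP+ the same comparison gave 3 higher and 1 lower, against 2.38% and 1.54% of genes. GFP+ over GFP- cells within MHCII- gave 2 higher and 1 lower, against 2.53% and 2.61%, and within MHCII+ 1 higher and none lower, against 0.729% and 0.864%. The median log2 ratio of the members was 0.08, 0.31, 0.01 and 0.09 in these 4 comparisons, beside medians of all genes between 0.00 and 0.01.

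Tnf was the only member past 2-fold for GFP in both MHCII classes, with ratios of 2.09 in MHCII- and 2.15 in MHCII+ cells. Tnfsf9 stayed inside the rule at 1.61 and 1.95. Among 20 TNF-induced genes 9 were past 2-fold higher in GFP+ cells within MHCII- and 5 within MHCII+, with none lower; the 5 included Cxcl2, a chemokine for neutrophils, at 2931 FPKM against 1328, and Cxcl10, a chemokine for T cells, at 659 FPKM against 302. Of 16 NF-kB subunits and feedback inhibitors 2 (Tnip3 and Rel) were higher within MHCII- and none within MHCII+. The summed level of 10 neutrophil markers also differed by GFP. It was 346 and 357 FPKM in the GFP+ gates and 136 and 119.1 in the GFP- gates. Most of the GFP+ sums was S100a8 and S100a9, at 86.1 and 143 FPKM in MHCII+ and 94.2 and 192 FPKM in MHCII- cells. Within MHCII-, Csf3r, Mpo and Elane went the other way, at 15.1, 0.48 and 0.01 FPKM in GFP+ against 18.3, 1.29 and 0.684 in GFP-. The part of this list in the values above was not tested.

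Tnfrsf13c, the BAFF receptor of B cells, was the only member past 2-fold for MHCII in both GFP classes. It was 3.04 and 3.74 FPKM in the MHCII+ gates and 0.295 and 0.263 FPKM in the MHCII- gates, with ratios of 3.12 within GFP- and 3.76 within GFP+. The summed level of 6 B cell markers was 42.9 and 45.5 FPKM in the MHCII+ gates and 6.42 and 7.52 FPKM in the MHCII- gates. Of these, Cd79a, a subunit of the B cell receptor, was 14.2 and 13.5 FPKM in MHCII+ against 0.443 and 1.28 FPKM in MHCII- cells, and Pax5, the B lineage factor, was 2.04 and 3.61 FPKM against the floor of 0.01. The sum of dendritic cell markers differed the same way, at 253 and 220 FPKM in MHCII+ and 141 and 60.1 FPKM in MHCII- gates. Most of it was Cd209a, at 193 and 155 FPKM in MHCII+ and 114 and 41.6 FPKM in MHCII- gates. Within GFP- cells Zbtb46 alone of that list went the other way, at 6.04 FPKM in MHCII+ and 6.28 in MHCII- cells. The part of either list in Tnfrsf13c was not tested.

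The remaining marks all lay in comparisons that use the MHCII- GFP+ gate. That gate held the lowest level of Tnfsf13 and Tnfrsf14 and the highest of Tnfsfm13 and Ltb. Tnfsf13 was lowest in the MHCII- GFP+ gate, at 16.6 FPKM there, 36.0 in MHCII- GFP-, 35.9 in MHCII+ GFP- and 34.6 in MHCII+ GFP+, and it was past 2-fold in both comparisons that use this gate. Tnfrsf14, the receptor of LIGHT, was also lowest in that gate, at 8.03 FPKM, with 11.9 in MHCII- GFP-, 13.9 in MHCII+ GFP- and 17.2 in MHCII+ GFP+. Tnfsfm13 was lowest in MHCII+ GFP+, at 4.79 FPKM, against 9 in MHCII+ GFP-, 10.5 in MHCII- GFP- and 13.5 in MHCII- GFP+. Tnfsf13 and Tnfsfm13 carry a single deposited span, so the division of fragments between them is uncertain in each gate. Ltb was lowest in MHCII- GFP-, at 1.03 FPKM, against 4.93 in MHCII- GFP+, a ratio of 2.92, and it was 4.45 FPKM in MHCII+ GFP+ and 2.82 in MHCII+ GFP-. The MHCII- GFP+ library was also the shallowest of the 4, at 0.71 times the depth of the first, and the part of depth in these marks was not tested. Tnfrsf14 lost its mark under median ratio scaling.

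Infiltrating cells were compared over time after damage, again without a test. The library titles carry a label that appears to give a number of cells, largest at day 2 and smallest at day 6. Day and this label cannot be told apart. From day 2 to the mean of the 2 day 4 libraries, 2 of 24 members were past 2-fold higher, against 5.6% of 10444 genes, and 3 lower, against 4.47%. The members that were lower were Tnf, Tnfrsf12a and Tnfsf14, with ratios of 0.395, 0.466 and 0.47. Those that were higher were Ltb and Tnfsf13, with ratios of 2.22 and 2.03, the latter with the uncertainty of its shared locus. Without day 4 replicate 2 the mark was lost for Tnfrsf12a, Tnfsf13 and Tnfsf14, and without replicate 1 it was kept for all 5. Tnfsf14 stood at 14.6 FPKM at day 2, 7.13 and 5.55 at day 4 and 8.05 at day 6, and Tnfsf13 at 33.1, 57.8 and 78.9, and 40.3 FPKM. The members' median log2 ratio was -0.16, beside 0.00 for all genes.

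Other genes of the pathway also differed between day 2 and day 4. Of 17 TNF-induced genes that reached 1 FPKM, 9 were past 2-fold lower and 1 higher. The monocyte chemokine genes Ccl2 and Ccl7 were lowest relative to day 2: Ccl2 went from 1261 FPKM to 109 and 71.0, and Ccl7 from 742 FPKM to 55.1 and 35.8. Vcam1, an adhesion molecule, was higher, from 2.64 FPKM to 9.10 and 12.1. Of 25 adaptors and kinases 3 were lower (Ripk3, Cflar and Traf1) and none higher, and no NF-kB gene of 16 was past 2-fold. The summed level of 6 monocyte markers was 2945 FPKM at day 2, 463 and 523 at day 4 and 421 at day 6, and that of 14 interferon genes was 2831 FPKM at day 2 and 1432 to 1546 FPKM later. The sums of 9 T cell markers and of 8 dendritic cell markers were lowest at day 2. The T cell sum was 4.08 FPKM against 15.5 and 17.04 at day 4. Its largest part at day 4 was Cd4, at 6.77 and 8.09 FPKM, while the Cd3 genes were 0.527 to 1.21 FPKM. The dendritic cell sum was 45.2 FPKM at day 2 against 167 and 120 at day 4. The part of these lists in the members that differed was not tested.

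From day 4 to day 6, 1 member was past 2-fold higher, against 1.18% of genes, and none lower, against 0.306%. This was Tnfrsf9, the costimulatory receptor that binds the Tnfsf9 ligand, at 2.41 FPKM at day 6 and 0.443 to 0.670 FPKM before. Tnfrsf9 overlaps Camta1 on the other strand. The other low members Tnfrsf4, Tnfrsf18 and Fasl were also highest at day 6: Tnfrsf4 at 2.31 FPKM against at most 0.966 before, Tnfrsf18 at 4.51 against at most 2.52, and Fasl at 1.13 against at most 0.266, all of them known from activated T cells or NK cells. All 9 T cell markers measured passed 1 FPKM at day 6, with a sum of 39.1 FPKM against 15.5 and 17.04 at day 4, and the sum of 7 NK cell markers was 54.0 FPKM at day 6 against 15.7 and 17.2 at day 4. The 8 dendritic cell markers also had their highest sum at day 6, 259 FPKM against 167 and 120 at day 4. The part of these lists was not tested.

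**Figure D3:**
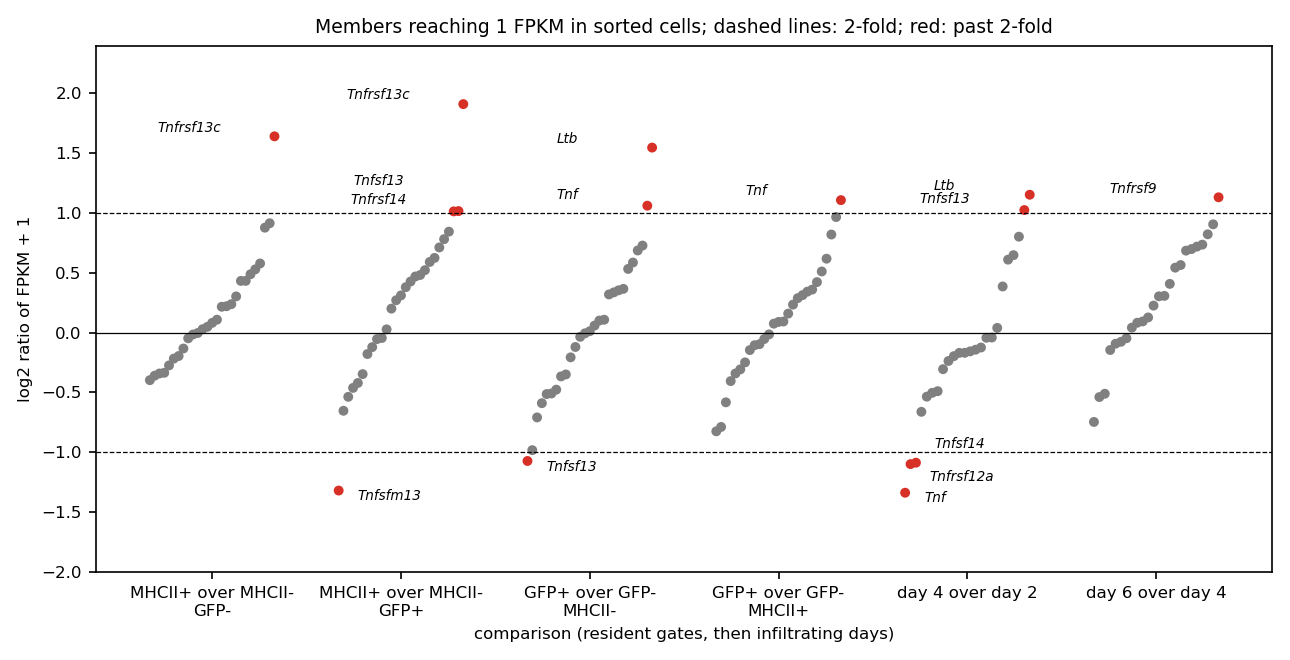
Log2 ratio of FPKM + 1 for each reported member (27 resident, 24 infiltrating) in 6 comparisons of sorted cells; dashed lines mark 2-fold, and red points are past it and named. Tnf is past 2-fold for GFP in both MHCII classes and is below the lower line for day 4 over day 2.

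In dystrophic muscle the question was what a CSF1R inhibitor diet of 6 months did. The test was limma on log2(FPKM + 1) over the 10197 genes whose mean reached 1 FPKM, with Benjamini-Hochberg adjustment over them all, and 9 members entered it while 30 were under that level. At an adjusted p under 0.05, 1 of the 9 was called higher with PLX, where 0.127% of all genes were, and 0 lower, where 0.0294% were. That member was Tnfrsf1a, at 7.45, 9.05 and 9.98 FPKM in controls and 16.8, 16.6 and 17.4 FPKM with PLX. The groups did not overlap, with means of 8.83 ± 1.28 (SD, n = 3) and 16.9 ± 0.412 (SD, n = 3). Its log2 change was 0.88 (SE 0.11, limma adjusted p = 0.0492). The call lay at the threshold and was lost in 6 of 7 other settings, with adjusted p between 0.0502 and 0.269, and without each library except control replicate 3; its change stayed between 0.77 and 0.96.

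The remaining 8 tested members had adjusted p between 0.194 and 0.768 in limma. Tnfrsf12a was 20.1, 22.2 and 84.4 FPKM in controls and 39.8, 115 and 141 FPKM with PLX, a log2 change of 1.34 with a 95% interval from -0.17 to 2.84 and overlapping groups. Tnfsf12, its ligand, was 3.01, 4.63 and 3.99 FPKM in controls and 4.47, 5.97 and 5.35 FPKM with PLX (log2 change 0.37, interval 0.01 to 0.72, adjusted p = 0.296). Fas and Tnfrsf21 were higher in every PLX library than in any control, and Tnfrsf19 was lower in every one. With Tnfrsf1a these made 4 members whose diets did not overlap, where 23.0% of all tested genes did not. Tnfrsf1b was 0.568, 4.97 and 1.25 FPKM in controls and 0.973, 1.73 and 1.09 FPKM with PLX; control replicate 2, the library with the high macrophage sum, held the highest value. Its log2 change was -0.30, and 0.25 with that library left out.

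The median log2 change of the 9 members was 0.40, beside 0.00 for all genes, and 7 of the 9 were positive. No gene was called among 4 tested family members outside the symbol rule, 20 adaptors and kinases, 11 NF-kB genes, 5 shedding proteases and 11 TNF-induced genes. The lowest adjusted p in these lists was 0.0976, among the TNF-induced genes. Among cell type lists none held a called gene. The macrophage sum, most of it Lyz2, was 51.8, 349 and 102 FPKM in controls and 53.9, 111 and 62.4 FPKM with PLX. The groups overlapped. The median log2 change over the 6 macrophage markers tested was -0.77, with 1 of them positive. It was 0.63 over 4 mast cell markers, all of them positive. The median log2 change over 8 fibro-adipogenic progenitor markers was 0.50. It was 0.68 over 7 immediate early genes, whose 8-gene sum was 85.0 to 112 FPKM in controls and 107 to 161 FPKM with PLX. The part of these lists in Tnfrsf1a was not tested.

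In injured muscle the diet had been stopped 3 days before the damage, and 11578 genes and 22 members were tested with limma across both times, with time as a term, and 17 members were under the level for the test. With the earlier PLX diet 2 of the 22 members were called higher and 2 lower, where 5.42% of all genes were called higher and 6.23% lower. All 4 were receptors, 3 of them TRAF-binding and 1 a decoy. None of the 8 tested ligands and none of the 4 tested death domain receptors was called, with lowest adjusted p of 0.0601 and 0.26.

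Tnfrsf1b, the TNF receptor of leukocytes, was 19.6 FPKM at 12 h and 13.2 and 11.3 FPKM at 18 h in controls, and 25.1 FPKM at 12 h and 28.7 and 22.1 FPKM at 18 h after PLX. Every PLX library was above every control, with means of 25.3 ± 3.28 and 14.7 ± 4.35 FPKM (SD, n = 3 each). The log2 change was 0.77 (SE 0.19, limma adjusted p = 0.0453). Tnfrsf11a, which encodes RANK, the receptor that drives osteoclast formation from myeloid precursors, was 3.61 FPKM at 12 h and 4.38 and 5.27 FPKM at 18 h in controls, and 6.19 FPKM at 12 h and 8.95 and 8.45 FPKM at 18 h after PLX. Again the groups did not overlap, and the log2 change was 0.71 (SE 0.13, limma adjusted p = 0.0232). In the sorted cells of the other tables these 2 receptors stood at 43.9 to 101 FPKM and 9.52 to 31.2 FPKM.

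Tnfrsf12a, the TWEAK receptor, was lower after PLX. Controls held 1456 FPKM at 12 h and 995 and 848 FPKM at 18 h, and the PLX group 525 FPKM at 12 h and 476 and 277 FPKM at 18 h. The lowest control was above the highest PLX library, with means of 1099 ± 317 and 426 ± 131 FPKM (SD, n = 3 each). The log2 change was -1.38 (SE 0.25, limma adjusted p = 0.0236), and under quantile normalization -1.08 with adjusted p = 0.0515. Tnfrsf23, the TRAIL decoy receptor, was 14 FPKM at 12 h and 32.6 and 20.2 FPKM at 18 h in controls, and 6.62 FPKM at 12 h and 15.2 and 9.58 FPKM at 18 h after PLX. The groups overlapped when times were pooled and did not within either time; the log2 change was -1.01 (SE 0.23, limma adjusted p = 0.0395). With the 18 h libraries alone, Tnfrsf1b, Tnfrsf11a and Tnfrsf12a were called and Tnfrsf23 was not (limma adjusted p = 0.0576). Cd40 and Tnfsf9 were called as well, but more genes of the whole table were called in that setting than in the main fit.

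These 4 calls needed each of the 18 h libraries: without control or PLX replicate 1 or 2 at 18 h no member was called, and only 0 to 180 genes of the table were. The changes themselves kept their direction and much of their size with any 1 of the 6 libraries left out, from 0.61 to 0.99 for Tnfrsf1b, 0.63 to 0.76 for Tnfrsf11a, -1.61 to -1.17 for Tnfrsf12a and -1.19 to -0.81 for Tnfrsf23. Leaving out a 12 h library made the diet change equal to that of the 18 h libraries alone. The time term then fits the other 12 h library exactly, so this is no separate check from 18 h alone. Tnfrsf23 was not called in either of these fits. With genes of low level kept in, no member was called.

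**Figure D4:**
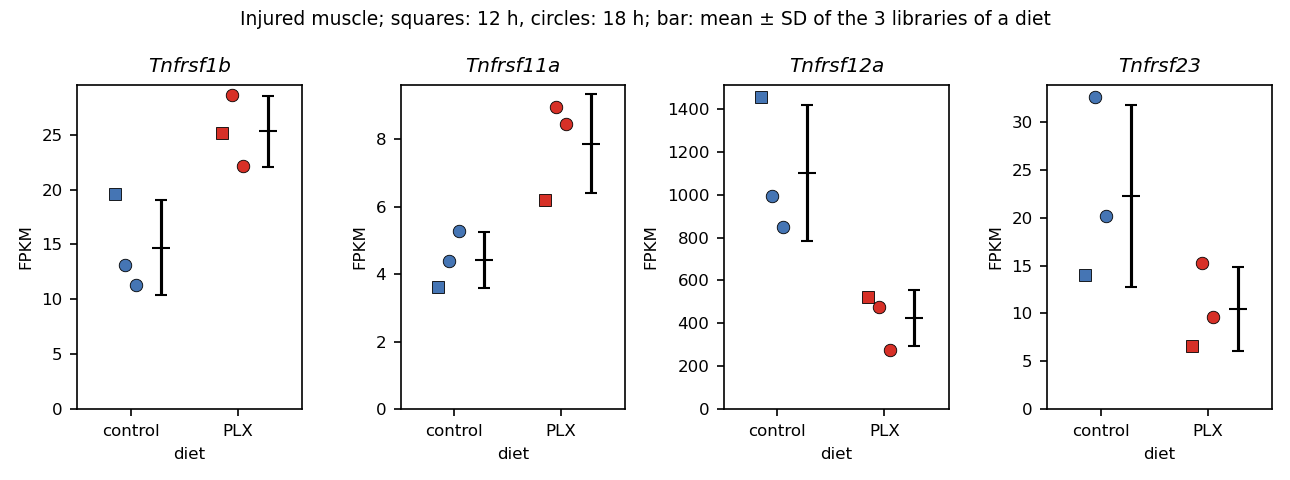
FPKM in each injured muscle library of the 4 members called for diet, with squares for 12 h, circles for 18 h and bars for the mean and SD of the 3 libraries of a diet. All PLX libraries lie above all controls for Tnfrsf1b and Tnfrsf11a and below them for Tnfrsf12a, and the diets overlap for Tnfrsf23.

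The ligand Tnf itself was 7.02 FPKM at 12 h and 2.77 and 3.03 FPKM at 18 h in controls, and 5.47 FPKM at 12 h and 4.58 and 3.66 FPKM at 18 h after PLX. The diets overlapped, and the log2 change was 0.16 (interval -0.28 to 0.59, limma adjusted p = 0.604). Tnfrsf1a was 117, 95.4 and 92.5 FPKM in controls and 122, 105 and 106 FPKM after PLX, 12 h first, a log2 change of 0.13 (interval -0.18 to 0.45). Tnfsf12 was 28.9, 24.6 and 25.3 FPKM in controls and 18.0, 35.9 and 31 FPKM after PLX, so that the PLX library was the lower at 12 h and both were the higher at 18 h. Tnfsf9 was 3.73, 1.90 and 2.98 FPKM in controls and 4.81, 5.56 and 5.34 FPKM after PLX, without overlap (log2 change 0.72, limma adjusted p = 0.0601). In all, 4 of the 22 members had diets that did not overlap, where 30.4% of the tested genes did not. The median log2 change of the members was 0.13, beside -0.02 for all genes.

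**Figure D5:**
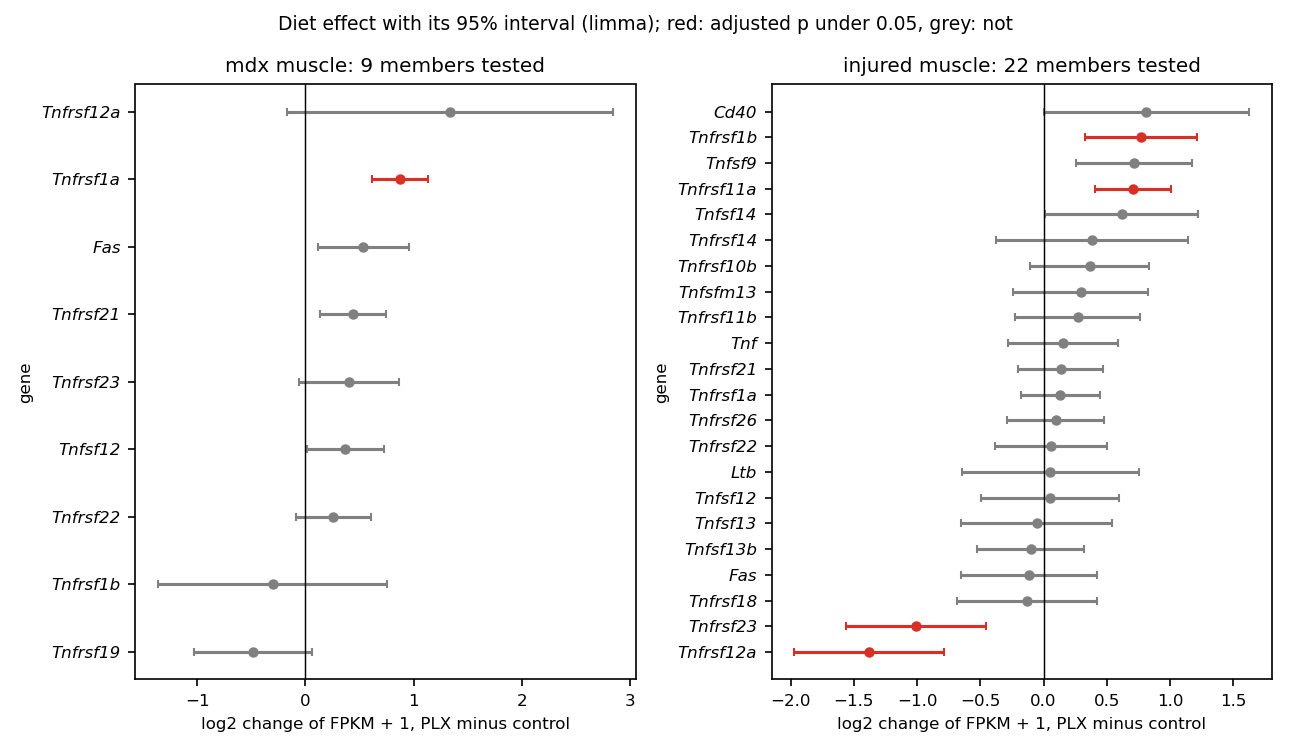
Log2 change of FPKM + 1, PLX minus control, with its 95% interval from limma, for the 9 members tested in mdx muscle and the 22 tested in injured muscle; red marks an adjusted p under 0.05. Tnfrsf1a is called in mdx muscle, and Tnfrsf1b, Tnfrsf11a, Tnfrsf12a and Tnfrsf23 in injured muscle.

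Downstream of the receptors, 5 of 25 adaptors and kinases were called higher after PLX and none lower, beside the 5.42% and 6.23% of all genes given above. They were Mlkl and Ripk3, which carry out necroptosis, Casp8, which restrains it and starts apoptosis, Ripk1, the kinase at the TNF receptor complex, and Birc3, a ubiquitin ligase of that complex. Mlkl went from 5.70 ± 1.42 to 12.2 ± 2.92 FPKM (SD, n = 3; log2 change 0.97, limma adjusted p = 0.022), Ripk3 from 10.2 ± 0.347 to 19.3 ± 2.35 FPKM (0.86, adjusted p = 0.0188) and Casp8 from 10.4 ± 1.14 to 19.3 ± 2.64 FPKM (0.84, adjusted p = 0.0229). The median of the list was 0.26. Of 15 NF-kB genes 2 were called higher, Nfkbiz (log2 change 0.66, adjusted p = 0.0311) and Nfkbie (0.49, adjusted p = 0.0492), both inhibitors or modulators of NF-kB. Of 18 TNF-induced genes 2 were called higher, Tnfaip8 (0.72, adjusted p = 0.0303) and the adhesion molecule Icam1 (0.54, adjusted p = 0.0356), and the list's median was 0.18. None of the 5 shedding proteases and none of the 3 family members outside the rule was called.

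Several other lists moved with the same diet contrast. Of 14 interferon genes 13 were called higher, with a median log2 change of 2.01 and the 4 largest changes in Irf7, Ifit3, Ifit1 and Mx1 (2.56, 2.51, 2.32 and 2.17). The summed level of 6 monocyte markers was 231 to 279 FPKM in controls and 850 to 870 FPKM after PLX, and 5 were called higher. That of 7 macrophage markers was 896 to 1078 FPKM against 1160 to 1673 FPKM, with 4 called higher. That of 10 neutrophil markers was 546 to 896 FPKM against 718 to 1701 FPKM, with S100a9 called higher of 5 tested. That of 8 fibro-adipogenic progenitor markers was 510 to 957 FPKM against 736 to 1148 FPKM, with Dpt called higher, and Cd209a was called lower of 5 dendritic cell markers tested. The sum of 9 muscle fibre markers was 63129 to 82412 FPKM against 27395 to 37342 FPKM, with 4 called lower. The myogenic factor Myod1 was also called lower, with a log2 change of -1.29. The 8 immediate early genes summed to 635 to 1528 FPKM in controls and 431 to 1090 FPKM after PLX, and Egr1 was called lower. None of the T cell markers reached the test. The part of these lists in the changes of the 4 receptors was not tested.

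Time after damage was compared within the same libraries, 18 h against 12 h, with 2 libraries at 12 h and 4 at 18 h. Both 12 h libraries carry the same code in their sample titles, whereas the 18 h libraries are split between that code and another. Time and code thus cannot be fully told apart. None of the 22 members was called, where 0.0777% of genes were, and 7 had an unadjusted p under 0.05 in limma, as did 2279 of all genes. Tnf had the lowest adjusted p among them, 0.148, with a log2 change of -0.69 (interval -1.15 to -0.23), and both 12 h libraries were above every 18 h library. Ltb also lay higher at 12 h without overlap, at 28.5 and 18.0 FPKM against 8.54 to 17.5 FPKM (log2 change -0.97, adjusted p = 0.181). Il6, a cytokine that TNF induces, was the 1 gene called of the 18 tested in that list, with a log2 change of -1.56 (adjusted p = 0.0286). The members' median was -0.18, beside 0.01 for all genes. With any single library left out, the log2 change of Tnf ranged from -1.04 to -0.34 and that of Tnfsf12 from -0.20 to 0.86. Where a 12 h library was the one left out, that time rested on a single library.

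The test of whether the diet effect differed between 18 h and 12 h gave no member called of 22, where 0.0605% of genes were, and 6 members with an unadjusted p under 0.05, as had 2701 of all genes. Tnfsf12 came nearest, with a difference in log2 change of 1.06 (interval 0.52 to 1.6, limma adjusted p = 0.106), and Cd40 followed with 1.55 (interval 0.51 to 2.59, adjusted p = 0.131). Cd40 was 3.95 FPKM at 12 h and 2.10 and 3.94 FPKM at 18 h in controls, and 3.25 FPKM at 12 h and 8.48 and 9.24 FPKM at 18 h after PLX. The diets lay close together at 12 h and apart at 18 h, but with 1 library per diet at 12 h the interval was wide. The members' median difference was 0.12, beside 0.06 for all genes.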

How the data were processed

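Messenger RNA from sorted cells and whole tibialis anterior was sequenced as stranded paired-end libraries, per the labels' protocols. The FPKM values were made by the authors and deposited as 4 tables; the submitters' processing notes name bcl2fastq, STAR, Bowtie, Cufflinks and the mm10 build, without roles. No counts were used, and sequencing depth is known only for the infiltrating libraries, for which the deposited file has a row of alignment totals, 25953400 to 34655400 each. Relative depth is the most frequent ratio between libraries of values under 0.2 FPKM. Entries whose symbols a spreadsheet had turned into dates (23 infiltrating, 27 injured) and 2 overwritten resident entries were dropped, and genes with missing values (3 dystrophic, 10 injured) were not tested.

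Whole-muscle comparisons used limma 3.58.1 in R 4.3.3 (trended variance, two-sided) on log2(FPKM + 1), which understates changes of low genes, with Benjamini-Hochberg adjustment over all genes of mean FPKM at least 1 and a threshold of 0.05. In injured muscle, diet and time were terms, and the difference of diet effects came from the 4 group means, the lone 12 h libraries being taken to vary like the others. Sorted cells were compared by the ratio of FPKM + 1. The fits were tested on simulated data. Intervals are 95%. Every library's value is given for members called by limma, members past 2-fold at 5 FPKM or more, the 3 highest members of a table, and Tnf, Tnfrsf1a, Tnfrsf1b, Tnfsf12 and Tnfrsf12a; up to 4 called genes are named per list, with Ripk1, Cd79a, Pax5 and the low members of day 6 named after their values were seen. The members and all lists were chosen with earlier results of these data known. A macrophage marker is not reported here and was left out of its list. Alternatives were the pseudocount, the filter, median ratio and quantile scaling, a block of title codes, the reporter as a covariate, 18 h alone and each library left out.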

Additional observations from a re-analysis of the deposited data

How the results depend on the processing

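Called members in dystrophic muscle numbered 1, and 0 with a pseudocount of 0.1, no filter, median ratio scaling, quantile normalization, the replicate block of title codes (Tnfrsf1a adjusted p = 0.0613, limma) or the reporter as a covariate; with libraries left out in turn the number was 0 to 1. For injured diet it was 4, and 0 with no filter, 2 under the replicate block (Tnfrsf12a and Tnfrsf23 kept; Tnfrsf11a adjusted p = 0.052 and Tnfrsf1b 0.0727, limma) and 0 to 5 with libraries left out. For time it was 0, and 0 to 3 with libraries left out. For the diet difference it was 0, and 1 with no filter (Cd40lg, below 1 FPKM everywhere); it could not be fitted without a 12 h library. Members past 2-fold numbered 6 in resident gates, and 10 with a pseudocount of 0.1 and 17 with a 1.5-fold rule; they numbered 6 in infiltrating cells, and 10 and 12 under these, and 3 to 7 with a day 4 library left out.

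Of 132 single-member results under other settings 116 kept direction and side of the threshold, 14 lost the call and 2 reversed: under quantile normalization the diet difference was -0.37 for Tnfrsf12a and -0.17 for Tnfrsf1a. With libraries left out 7 of 116 reversed, none of them called: Tnfrsf1b in dystrophic muscle ranged from -0.71 to 0.25, Tnfsf12 for injured diet from -0.11 to 0.40 (-0.06 without control 18 h replicate 1, -0.04 without replicate 2), time effects from -0.64 to 0.0041 for Tnfrsf1b and from -0.20 to 0.86 for Tnfsf12, and the diet difference of Tnfrsf12a from -0.26 to 0.52. The cause was not tested.

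All genes called numbered 16 in dystrophic muscle (1 with no filter, 7 quantile, 8 reporter, 0 to 120 left out), 1349 for injured diet (5 no filter, 462 block, 2326 at 18 h alone, 0 to 2246 left out), 9 for time (2 no filter, 26 at a mean of 5, 2 quantile, 3 block, 2 to 1901 left out) and 7 for the difference (0 pseudocount, 502 no filter, 2 at a mean of 5, 2 block, 2 to 9 left out). Title codes were not taken to pair samples: deviations of same-coded libraries correlated at 0.287, 0.355 and 0.059 in dystrophic and 0.275 in injured muscle, although in the former each library correlated best with its own code. With 1 to 3 libraries a group and depth known only in part, low members could not be resolved.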

Other observations

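Family members outside the symbol rule were also measured. Ltbr, the receptor of lymphotoxin and LIGHT, ranged from 16.7 to 41.1 FPKM in the sorted cells, and Relt, a receptor of leukocytes, from 5.6 to 9.9 FPKM.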
